A study of Mus musculus with 160 samples.

Results

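The samples described here are 50 distal colon samples with little neutrophil signal, 25 of them with a high and 25 with a low expression of interferon-γ target genes, out of the 160 samples of the series. The members were chosen by measured expression. Within each of the 4 mouse lines the lower-scoring 1 in 2 samples were kept by a neutrophil score, the mean of log2(CPM + 1) over *S100a8*, *S100a9*, *Il1b* and *Cxcl2*; CPM stands for raw counts scaled to the library total. Of the 79 samples kept, the top 1 in 3 of each line by an interferon score, the same mean over *Cxcl9*, *Gbp2*, *Gbp4* and *Igtp*, were called interferon-high and the bottom 1 in 3 interferon-low. The 29 samples between them and the 81 samples set aside by the neutrophil score were used only for comparison. The 8 score genes were left out of all results that follow.

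Interferon-γ is secreted mainly by T cells and natural killer cells and acts through a receptor on nearly every cell, where the kinases Jak1 and Jak2 start a signal that reaches the GAS element of target genes. The type I interferons signal to a related element, the ISRE, through a complex with Stat2 and Irf9, and the ISRE is also read by Irf1. The targets include GTPases that attack intracellular microbes, chemokines that draw in T cells, and the machinery that presents antigen. In the gut epithelium these genes are known to be expressed at a low level at rest and to be induced by microbes and by activated lymphocytes.

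RNA of the distal colon was sequenced in knockout lines of 4 genes and in their wild-type littermates in a study of dextran sulfate sodium (DSS) colitis, a chemical injury of the colon epithelium. The genes were *Nckap1l* (labelled HEM1; 16 homozygous knockout, HO, and 15 wild-type, WT, samples; strain C57BL6/J, both sexes), *Dock2* (18 HO and 24 WT; C57BL6/J, both sexes), *Gpsm3* (20 HO and 20 WT; C57BL6/J, male) and *Dok3* (26 HO and 21 WT; strain 129, labelled male). Tissue was taken on day 10, after 5 days of DSS and 5 days of water, and on day 12, with 7 days of water, in the *Nckap1l* line; the labels put DSS at 3% for the *Dock2* and *Gpsm3* lines and at 3.5% for the *Dok3* line. The methods of the study add that *Nckap1l* mice received a slightly lower dose, and that a first round of *Dok3* mice received a lower dose than the labels give; which samples came from that round is not given in the sources used here. Treated and untreated mice were sequenced, and the labels do not say which is which, so a high or a low interferon score cannot be assigned to DSS or to its absence. HO and WT mice were littermates bred from heterozygous parents, and ages are not given in the labels.

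The 2 groups held 7 and 7 samples of the *Dock2* line, 7 and 7 of the *Dok3* line, 6 and 6 of the *Gpsm3* line and 5 and 5 of the *Nckap1l* line. The ranges of depth overlapped, with 9950332 to 17912034 counts per interferon-high library and 7514233 to 18114660 per interferon-low library. In the *Dok3* line the interferon-low libraries were shallower, with a median of 11454345 counts against 15329561 in the interferon-high ones. Markers of sex went against the label in 1 interferon-high and 1 interferon-low library of the *Dok3* line, and 1 interferon-high and 2 interferon-low libraries held over 100 CPM of skin or striated muscle genes. Smooth muscle, colonocyte and goblet cell genes were present in every sample. The targeted gene lay lower in HO than in WT samples in 3 of the lines, with exceptions. *Nckap1l* was at 4.79 to 13.5 CPM in the 5 interferon-high HO samples and at 17.6 to 31.3 CPM in the 4 interferon-low WT samples, but the 1 interferon-low library labelled HO was at 22.7 CPM. *Dock2* was at 13.2 to 18.3 CPM in the 4 interferon-high HO samples and at 25.1 to 51.9 CPM in the 9 WT samples of its line, but the 1 interferon-low library labelled HO was at 28.7 CPM. *Gpsm3* was at 0.257 to 2.74 CPM in 7 HO and at 2.09 to 3.42 CPM in 5 WT samples. *Dok3* did not separate its labels, at 1.05 to 7.59 CPM in 8 HO and 1.39 to 4.74 CPM in 6 WT samples. The genotype of these libraries is therefore given as labelled.

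The scores show how far apart the groups are. Over the 25 interferon-high samples the interferon score ran from 3.25 to 7.59 with a median of 4.31, and over the 25 interferon-low samples from 2.45 to 3.59 with a median of 2.98. *Cxcl9*, the ligand of the chemokine receptor Cxcr3 of T cells, had a median of 3.67 CPM (0.804 to 71.1) in the former and 0.529 CPM (0 to 1.83) in the latter. *Gbp2* had medians of 75.2 and 31.4 CPM, *Gbp4* of 16.5 and 8.39 CPM, and *Igtp* of 22.2 and 7.65 CPM. These values chose the groups and are given only as a description. The neutrophil score was low in both, with a median of 0.678 (0.41 to 2.04) in interferon-high and 0.445 (0.171 to 2.08) in interferon-low samples, against 3.92 (0.821 to 10.5) in the samples set aside. *S100a8*, a subunit of neutrophil calprotectin, had medians of 0.421, 0.183 and 16.7 CPM in these 3 groups. High interferon scores were also found in the set-aside samples, which had a median of 4.58 (2.87 to 7.42).

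**Figure D1:**
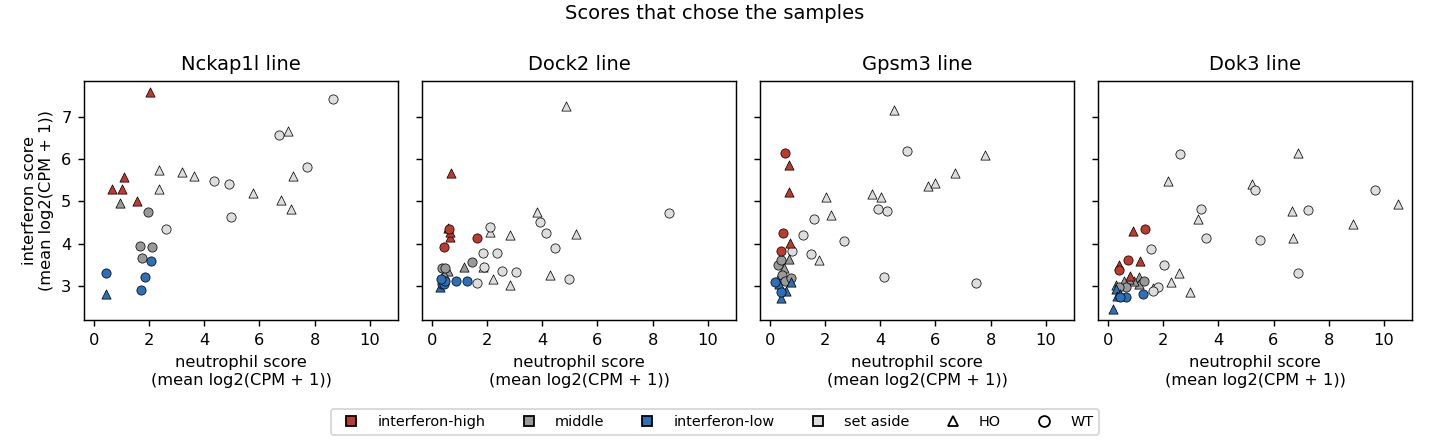
Neutrophil score (x axis) against interferon score (y axis), both as mean log2(CPM + 1), with 1 point per sample and 1 panel per line; colour marks the group and the symbol the labelled genotype. The interferon-high and interferon-low samples lie at the left of each panel, and the level that separates them differs between lines.

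Because samples were ranked within lines, the same score could be high in one line and low in another. The last interferon-high sample of the *Nckap1l* line had a score of 5.01 and the first sample outside it 4.95. These values were 3.93 and 3.57 in *Dock2*, 3.84 and 3.64 in *Gpsm3*, and 3.25 and 3.21 in *Dok3* mice. At the other end the last interferon-low sample had 3.59 and the next 3.66 in *Nckap1l*, 3.16 and 3.27 in *Dock2*, 3.09 and 3.11 in *Gpsm3*, and 2.93 and 2.98 in *Dok3* mice. The highest neutrophil score kept and the lowest set aside were 2.1 and 2.38 in *Nckap1l*, 1.63 and 1.65 in *Dock2*, 0.761 and 0.821 in *Gpsm3*, and 1.36 and 1.56 in *Dok3* mice. A *Dok3*-line sample just inside interferon-high thus lay below the highest interferon-low sample of the *Nckap1l* line.

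To describe what went with the score, counts of the 50 samples were fitted with line as covariate by edgeR, and the fitted log2 fold is the value of interferon-high minus interferon-low. The rule chose the samples by genes of the same response, so these folds are a description and no p-value is drawn from them. Of 18484 genes fitted, 89 (0.481%) were at least 2-fold higher and 73 (0.395%) at least 2-fold lower in interferon-high samples. The median log2 fold over all genes fitted was 0.00, and 49.1% of them lay above 0; 1574 of the 18484 were higher in all 4 lines. Of the 89 higher genes 42 belonged to the pathway lists used here and 66 were higher in all 4 lines, while none of the 73 lower genes belonged to those lists and 66 of them were immunoglobulin genes. These counts were 96 and 80 without the libraries with mismatched sex markers, 82 and 78 without those with skin or striated muscle genes, and 83 and 95 without the 9 whose targeted gene, relative to *Ptprc*, lay nearer the other genotype of its line. Other settings moved them further, to 445 and 471 with no filter beyond 1 count, to 532 and 136 with run in place of line, and the lower genes to 37 without the *Nckap1l* line. With genotype added to the fit, 111 genes were at least 2-fold higher and 70 lower. In the *Nckap1l* line all 5 interferon-high samples were labelled HO, and 4 of the 5 interferon-low samples WT. For no gene can genotype and interferon group be told apart in that line. Levels of single genes are given below as CPM normalized by TMM over all samples. Since the tissue is a mixture, fewer cells of a type and less RNA per cell cannot be told apart.

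The same genes were then tested in samples that the 2 groups did not use. In the 81 samples set aside, each gene was tested for a slope on the interferon score, as log2 change per unit of score, with line and neutrophil score in the model. In these samples 1037 genes (5.1%) had a positive and 356 (1.75%) a negative slope at an adjusted p under 0.05 (edgeR quasi-likelihood test, Benjamini-Hochberg), of 20329 tested, and the median slope over all genes was -0.01. Of the 89 genes at least 2-fold higher in interferon-high samples 68 had a positive slope there and none a negative one; of the 73 lower genes 8 had a positive slope and none a negative one. The score genes and the tested genes were counted in the same libraries, so the slope shows that genes move together across samples, not what drives them.

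Of the 8 ligands, *Ifnk* had enough counts for the fit of the 50 samples, and *Ifng* and *Ifnk* for the test in the set-aside samples. *Ifng* had no read in 9 of 25 interferon-high and in 18 of 25 interferon-low samples, and it was too low to be fitted in the 50. Its highest value was 0.966 CPM in the former and 0.194 CPM in the latter. It was highest in the *Nckap1l* line, with a median of 0.403 CPM (0.0638 to 0.858) in 5 interferon-high and 0 (0 to 0.194) in 5 interferon-low samples, and in the *Gpsm3* line, with 0.257 CPM (0 to 0.966) against 0 (0 to 0.0581). None of the 7 interferon-high samples of the *Dok3* line held an *Ifng* read, while the highest interferon-low sample of that line was at 0.173 CPM. In the set-aside samples its slope was 1.19 ± 0.151 (SE; adjusted p = 4.37e-09, edgeR). The type I interferon genes *Ifnb1*, *Ifna2* and *Ifna4* had no read in any of the 50 samples, and at these depths a count of 0 allows a level of up to 0.166 CPM in the deepest and 0.399 CPM in the shallowest library (3 counts; counting error only). *Ifnk*, an interferon of keratinocytes, was at 3.76 CPM (1.88 to 5.67) and 3.89 CPM (2.53 to 5.58), a log2 fold of 0.00 ± 0.102.

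The receptors hardly differed. None of the 6 receptor genes was 2-fold apart, their median log2 fold was 0.02, and *Ifngr1*, the binding chain of the interferon-γ receptor, was at 316 CPM (269 to 389) in interferon-high and 313 CPM (237 to 371) in interferon-low samples. Its slope in the set-aside samples was small, at 0.13 ± 0.0296 (adjusted p = 0.00152, edgeR), and the other 5 did not pass the test.

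Among the 12 genes of signal transduction 2 were at least 2-fold higher, with a median log2 fold of 0.61, and 9 passed the test in the set-aside samples, all with a positive slope. *Nlrc5*, the transactivator of MHC class I genes, was at 25.3 CPM (9.36 to 169) in interferon-high and 8.91 CPM (3.29 to 29.4) in interferon-low samples, a log2 fold of 1.69 ± 0.185. *Irf1* was at 157 CPM (100.0 to 518) against 119 CPM (79.8 to 165), so that its groups overlapped. *Ciita*, the transactivator of MHC class II, was at 27.8 CPM (15.6 to 99.6) against 19.1 CPM (6.2 to 33.5), with a difference in mean log2 CPM of 1.32 among *Nckap1l* and 0.09 among *Dock2* samples. *Irf7* was at 61.7 CPM (28.7 to 178) against 33.3 CPM (22.5 to 56.6), and *Irf9*, the DNA-binding partner of Stat2, at 57.2 CPM (33.3 to 104) against 34.1 CPM (25.3 to 57.2). In each of these 2 genes 13 of 25 interferon-high samples lay above every interferon-low sample. The kinases *Jak1* and *Tyk2* were within 0.03 of no difference. *Jak2* had a small log2 fold of 0.13 ± 0.047, and its slope in the set-aside samples was 0.12 (adjusted p = 0.000149, edgeR).

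Of the 8 feedback inhibitors 2 were at least 2-fold higher. *Socs1*, which blocks the Jak kinases, was at 3.07 CPM (1.65 to 22.6) against 1.94 CPM (1.07 to 3.81), a log2 fold of 1.24 ± 0.196, and its slope in the set-aside samples was 0.61 (adjusted p = 1.09e-13, edgeR). *Socs3* was at 15.1 CPM (5.3 to 78.3) against 8.42 CPM (4.36 to 43.6), a log2 fold of 1.08 ± 0.225, but its slope there, 0.27, did not pass the test (adjusted p = 0.0707, edgeR). *Usp18* and *Trim30a* did, along with *Socs1*.

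The immunity-related GTPases, which destroy the vacuoles of intracellular microbes, stood furthest apart. All 7 genes of the list were at least 2-fold higher in the fit and higher to some extent in all 4 lines, with a median log2 fold of 2.31, and all 7 had a positive slope in the set-aside samples (0.74 to 1.42). *Tgtp1* was at 2.27 CPM (0.493 to 74.8) in interferon-high and 0.441 CPM (0.0865 to 1.23) in interferon-low samples, a log2 fold of 3.25 ± 0.373. *Tgtp1* and *Tgtp2* are near-identical copies, and the split of reads between them is uncertain. *Iigp1* was at 25.4 CPM (7.0 to 647) against 6.59 CPM (3.01 to 12.7), a log2 fold of 2.64 ± 0.292, and 21 of 25 interferon-high samples exceeded every interferon-low sample. *Irgm2* was at 53.7 CPM (23.5 to 307) against 21.8 CPM (10.1 to 34.2), a log2 fold of 1.73 ± 0.177. *Ifi47* was at 9.44 CPM (4.35 to 125) against 3.42 CPM (1.64 to 6.81), a log2 fold of 2.0 ± 0.235, and 19 of 25 interferon-high samples exceeded every interferon-low sample. *Irgm1*, a regulator of the family, was at 57.8 CPM (34.8 to 282) against 34.9 CPM (22.4 to 42.1). Summed over the list, the level was 169 CPM (86.7 to 1600) against 67.3 CPM (40.4 to 97.3).

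The promoters of 6 genes are shown because GAS and ISRE elements are the DNA sites of the interferon factors, chosen to compare the GTPase families with a chemokine, an ISRE-type gene and a GAS-type transcription factor. Each is the 250 bases before the RefSeq start (GRCm38.p6, the build of the counts), 5′ to 3′ on the strand of the gene, with capitals at matches to the ISRE core GAAANNGAA (on the other strand TTCNNTTTC) or to the GAS element TTCNNNGAA, which reads the same on both strands.
Irgm2 promoter, chr11:58214727-58214976 (plus strand): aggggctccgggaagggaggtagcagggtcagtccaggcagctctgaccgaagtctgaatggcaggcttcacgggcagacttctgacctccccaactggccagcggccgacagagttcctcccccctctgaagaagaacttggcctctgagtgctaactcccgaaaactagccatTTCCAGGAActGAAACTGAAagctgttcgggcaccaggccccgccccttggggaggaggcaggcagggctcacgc
Tgtp2 promoter, chr11:49064213-49064462 (minus strand): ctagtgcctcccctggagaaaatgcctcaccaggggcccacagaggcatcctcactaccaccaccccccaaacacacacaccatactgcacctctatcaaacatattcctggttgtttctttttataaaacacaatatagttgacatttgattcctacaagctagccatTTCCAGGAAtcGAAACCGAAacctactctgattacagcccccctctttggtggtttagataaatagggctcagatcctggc
Gbp7 promoter, chr3:142530086-142530335 (plus strand): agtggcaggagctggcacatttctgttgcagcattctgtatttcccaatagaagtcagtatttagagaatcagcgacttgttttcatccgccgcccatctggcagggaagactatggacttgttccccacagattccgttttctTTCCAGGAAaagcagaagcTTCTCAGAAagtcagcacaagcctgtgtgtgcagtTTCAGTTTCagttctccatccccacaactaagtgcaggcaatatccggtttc
Cxcl10 promoter, chr5:92348890-92349139 (minus strand): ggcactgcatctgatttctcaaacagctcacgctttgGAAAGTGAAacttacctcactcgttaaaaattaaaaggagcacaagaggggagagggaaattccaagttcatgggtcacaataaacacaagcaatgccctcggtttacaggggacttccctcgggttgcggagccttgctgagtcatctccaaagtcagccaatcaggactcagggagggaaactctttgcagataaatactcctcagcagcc
Isg15 promoter, chr4:156200819-156201068 (minus strand): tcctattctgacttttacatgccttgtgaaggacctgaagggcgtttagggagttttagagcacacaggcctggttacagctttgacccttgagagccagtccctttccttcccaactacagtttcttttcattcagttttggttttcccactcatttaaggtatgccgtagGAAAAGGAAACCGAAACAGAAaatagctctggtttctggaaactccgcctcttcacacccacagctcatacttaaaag
Irf1 promoter, chr11:53769764-53770013 (plus strand): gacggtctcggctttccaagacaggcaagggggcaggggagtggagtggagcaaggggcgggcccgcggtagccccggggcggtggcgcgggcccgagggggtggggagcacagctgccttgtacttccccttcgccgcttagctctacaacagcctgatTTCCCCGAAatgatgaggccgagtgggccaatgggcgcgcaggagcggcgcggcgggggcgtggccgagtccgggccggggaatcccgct
In *Irgm2* and *Tgtp2* a GAS match stands just before an ISRE match, 75 and 64 bases before the start in the former and 81 and 70 in the latter. *Gbp7* held 1 ISRE and 2 GAS matches, *Isg15* 3 overlapping ISRE matches and no GAS match, and this promoter of *Irf1* 1 GAS match and no ISRE match. An ISRE match lay in 5 of 6 promoters of the immunity-related GTPases and in 4 of 4 of the guanylate-binding proteins found in the table, against 2211 of 27025 genes (8.18%) overall. A GAS match lay in 4 of 6 and 2 of 4, against 8.13% overall. Of the 62 genes with a promoter among the 89 that were 2-fold higher, 25 (40.3%) held an ISRE match and 14 (22.6%) a GAS match. These are matches of letters and say nothing of binding.

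Guanylate-binding proteins, large GTPases that coat bacteria and vacuoles, followed at smaller folds. Of the 9 genes listed 6 were matched by symbol and 5 had enough counts; 3 were at least 2-fold higher, all 5 were higher in all 4 lines, and all 5 had a positive slope in the set-aside samples (0.56 to 0.98). *Gbp3* was at 23.1 CPM (11.6 to 130) against 9.83 CPM (5.29 to 13.4), a log2 fold of 1.47 ± 0.163, and *Gbp2b* at 13.3 CPM (6.3 to 74.1) against 5.95 CPM (3.13 to 7.69). In each of these genes 23 of 25 interferon-high samples lay above every interferon-low sample. *Gbp8* and *Gbp9* overlap the score gene *Gbp4* on chromosome 5, and reads shared between them are uncertain. *Gbp5*, *Gbp6* and *Gbp10* are not analysed here.

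Of the chemokine axis that draws T cells, 5 of 7 genes had enough counts and 2 were at least 2-fold higher. *Cxcl10* was at 3.57 CPM (1.27 to 29.5) against 1.1 CPM (0.261 to 4.33), a log2 fold of 1.82 ± 0.3, and its slope in the set-aside samples was 1.16 (adjusted p = 5.58e-21, edgeR). *Ccl5*, a chemokine for T cells and monocytes, was at 1.29 CPM (0.61 to 8.64) against 0.83 CPM (0.258 to 1.66). Its difference in mean log2 CPM was 2.18 among *Nckap1l* but 0.02 among *Dock2* samples. The receptor *Cxcr3* also had a positive slope in the set-aside samples, while *Ccl3* and *Ccl4* did not pass the test.

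**Figure D2:**
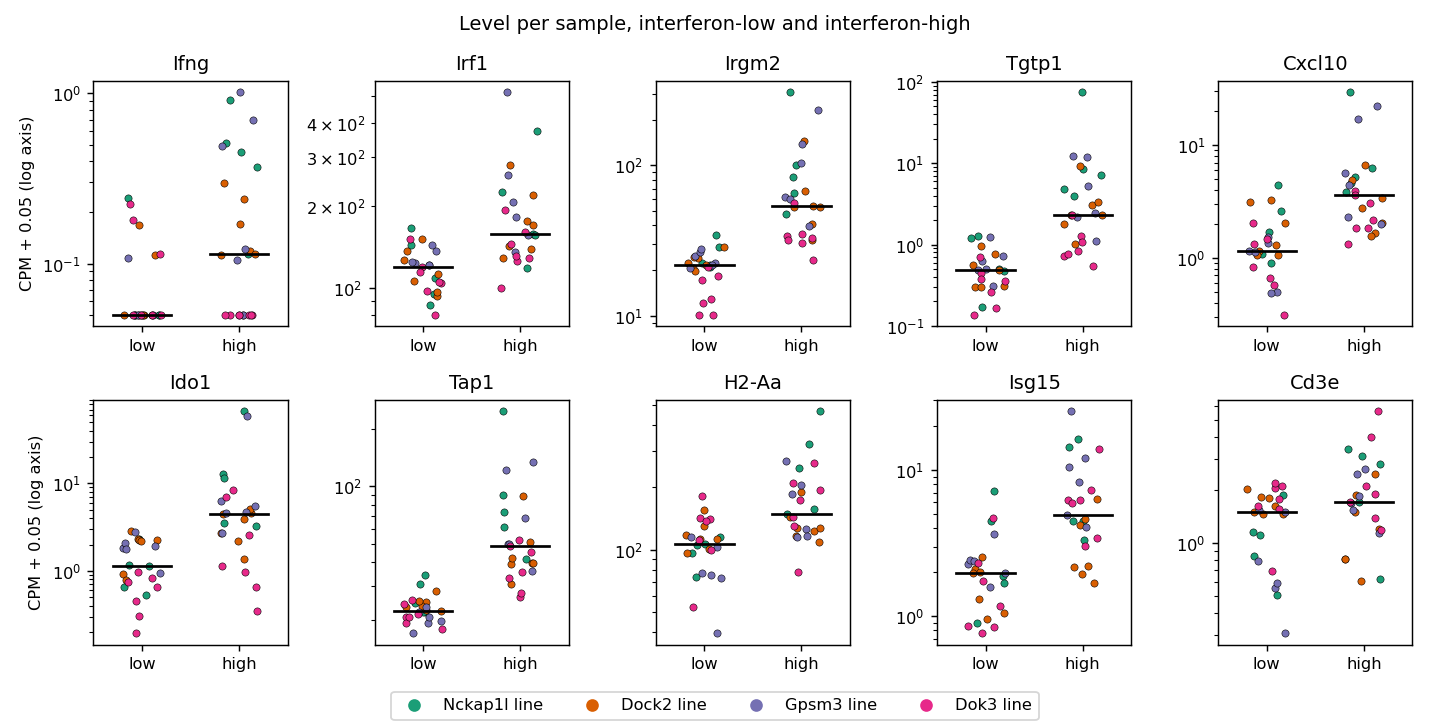
Level of 10 genes per sample as TMM-normalized CPM plus 0.05 (log axis), with 1 point per sample coloured by line and a bar at the median of 25 interferon-low and 25 interferon-high samples. The groups are nearly separate in *Irgm2*, *Tgtp1* and *Tap1* and overlap in *Irf1*, *H2-Aa*, *Isg15* and *Cd3e*.

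Antigen presentation genes of both classes leaned higher. For MHC class I all 16 genes listed lay above 0 and 15 were higher in all 4 lines, with a median log2 fold of 0.44. Of these genes 4 were at least 2-fold higher, and all 16 had a positive slope in the set-aside samples (0.17 to 0.68). Without the *Nckap1l* line, or with run in place of line, 1 of the 16 was at least 2-fold higher, and all 16 still lay above 0. *Tap1*, the peptide transporter, was at 48.7 CPM (26.3 to 250) against 22.1 CPM (16.9 to 34.3), a log2 fold of 1.36 ± 0.157, and the immunoproteasome subunits *Psmb8* and *Psmb9* had log2 folds of 1.10 and 1.08. The light chain *B2m* was at 335 CPM (212 to 983) against 227 CPM (172 to 300), with 15 of 25 interferon-high samples above every interferon-low sample. The heavy chain *H2-K1* was at 592 CPM (340.0 to 891) against 514 CPM (312 to 622), a log2 fold of only 0.25. For MHC class II none of 10 genes was 2-fold apart, but 7 were higher in all 4 lines. The median log2 fold was 0.61, above that of class I, and without the *Nckap1l* line the 2 medians were 0.44 and 0.37. The order was the reverse in the *Dock2* line, where the median difference in mean log2 CPM was 0.08 for class II and 0.22 for class I. *H2-Aa* was at 148 CPM (77.9 to 467) against 107 CPM (39.5 to 181), a log2 fold of 0.72 ± 0.143, and *Cd74*, the invariant chain, at 293 CPM (147 to 1260) against 213 CPM (69.5 to 328). *H2-Oa* and *H2-Ob*, class II genes typical of B cells, had log2 folds of -0.29 ± 0.271 and -0.35 ± 0.251, with differences of 0.71 and 0.75 among *Dok3* samples. In the set-aside samples 7 of 10 had a positive slope, and *H2-DMb2*, *H2-Oa* and *H2-Ob* did not pass the test.

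Of 26 other interferon-γ targets all lay above 0, 10 were at least 2-fold higher and 21 were higher in all 4 lines, with a median log2 fold of 0.71. In the set-aside samples 23 had a positive slope. Without the *Nckap1l* line 5 of 24 genes fitted were at least 2-fold higher, and all 24 lay above 0. *Ido1*, which breaks down tryptophan, was at 4.44 CPM (0.296 to 67.9) against 1.08 CPM (0.143 to 2.8), a log2 fold of 2.48 ± 0.402. *Nos2*, the inducible nitric oxide synthase, was at 6.26 CPM (1.08 to 212) against 1.52 CPM (0.382 to 15.3), a log2 fold of 2.68 ± 0.385, yet only 4 interferon-high samples exceeded every interferon-low sample. *Zbp1*, a sensor of nucleic acids that triggers necroptosis, was at 35.2 CPM (11.7 to 195) against 12.9 CPM (4.06 to 23.3). The checkpoint ligand *Cd274* was at 16.9 CPM (10.7 to 57.3) against 10.1 CPM (7.18 to 17.7), a log2 fold of 1.03 ± 0.155. *Aim2* and *Gch1* were near 0 (0.02 and 0.21), and with *Acod1* they were the 3 that did not pass the test in the set-aside samples.

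Genes best known from the type I response were higher too. All 23 lay above 0, 9 were at least 2-fold higher and 18 were higher in all 4 lines, with a median log2 fold of 0.77. *Isg15* was at 4.91 CPM (1.65 to 25.4) against 1.91 CPM (0.714 to 7.14), a log2 fold of 1.64 ± 0.243, and *Oas3*, an activator of RNase L, at 9.98 CPM (1.65 to 63.1) against 2.85 CPM (0.812 to 10.3), a log2 fold of 2.23 ± 0.3. *Ifit1*, which binds viral RNA, was at 13 CPM (3.89 to 72.5) against 5.65 CPM (1.8 to 17.8). Lines differed in the order of the families. In the *Dok3* line the list median was 1.00 for type I genes and 0.66 for guanylate-binding proteins, and *Oas2* differed by 2.42, whereas in the *Nckap1l* line the medians were 1.02 and 2.08. In the set-aside samples 20 of 23 had a positive slope, with a median of 0.43 against 1.08 for the immunity-related GTPases; *Ifi27l2a*, *Ifitm3* and *Siglec1* did not pass.

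**Figure D3:**
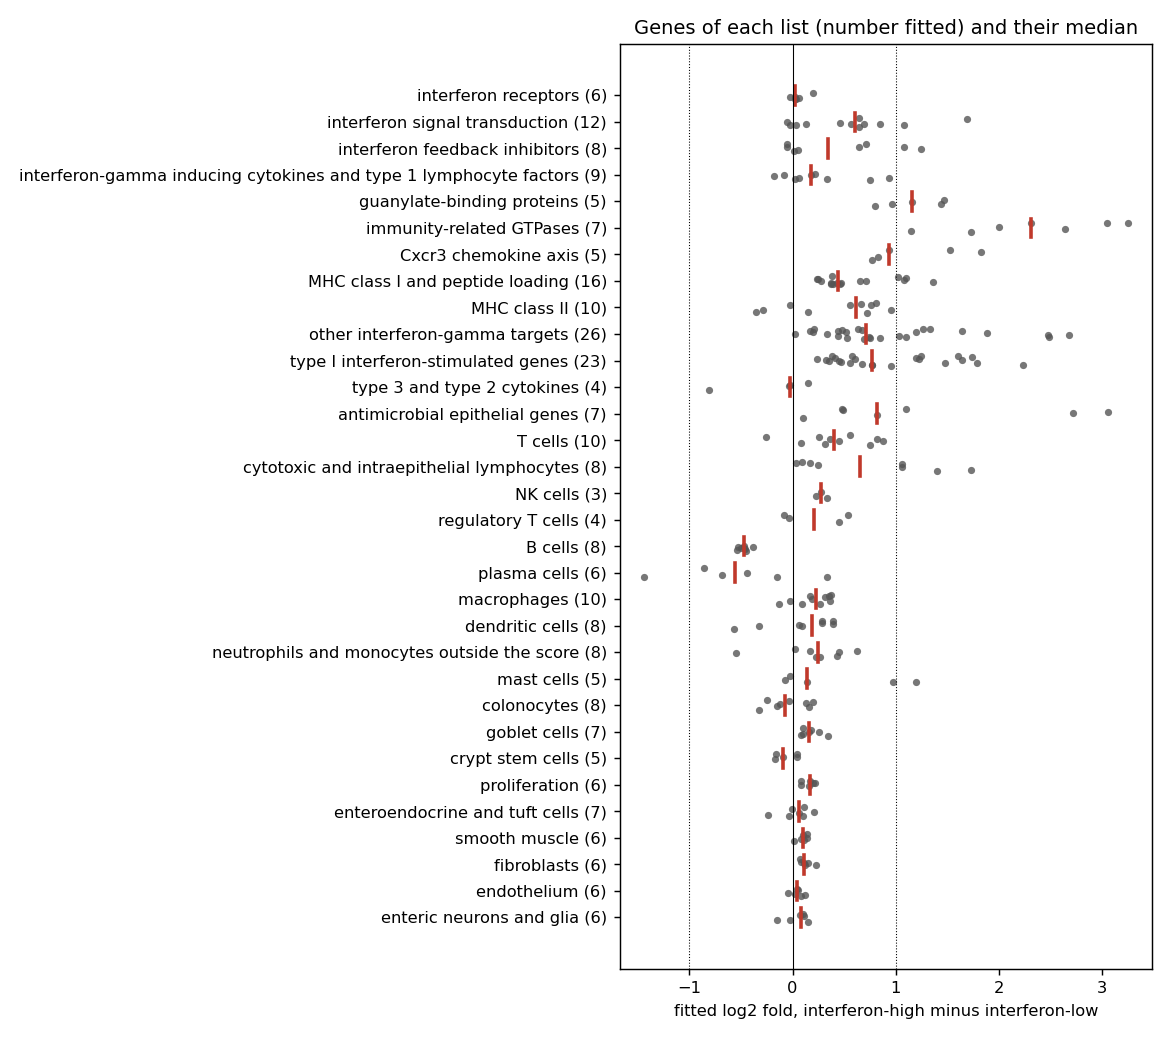
Fitted log2 fold of interferon-high minus interferon-low samples (x axis) for each gene of the lists with at least 3 genes fitted, with the number fitted in brackets; points are genes and red bars list medians. Of the lists drawn, which leave out immunoglobulin segments, skin, striated muscle and erythrocytes, immunity-related GTPases have the highest median, 2.31, and plasma cells the lowest, -0.56.

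Genes in no list were named by size of log2 fold, among those with a mean level of log2 CPM 1 or more and 1 direction in all 4 lines. The 10 with the largest higher log2 fold were *Gm12185* (3.00), *Apol10a* (2.62), *F830016B08Rik* (2.46), *Clca4b* (2.35), *Gm4951* (2.15), *Gm5431* (2.05), *Gm43302* (2.02), *9330175E14Rik* (1.66), *Ccl8* (1.36) and *2210407C18Rik* (1.18). *Gm12185* was at 1.95 CPM (0.69 to 31.9) against 0.406 CPM (0.171 to 0.905), and 23 of 25 interferon-high samples lay above every interferon-low sample. *Clca4b*, of a family of secreted chloride channel regulators, overlapped far more: it was at 27.4 CPM (2.7 to 659) against 5.99 CPM (1.7 to 601), and its largest difference, 4.0, was in the *Dock2* line. Of the 10 genes 9 had a positive slope in the set-aside samples, and the monocyte chemokine *Ccl8*, at 0.16, did not pass (adjusted p = 0.343, edgeR). The *Ccl8* slope was 0.34 without the libraries with skin or striated muscle genes (adjusted p = 0.0117, edgeR) and 0.41 without the neutrophil score in the model (adjusted p = 0.0044).

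In the set-aside samples the 5 genes of no list with the smallest p on the positive side were *Gm43302* (slope 1.02), *Gm12185* (1.25), *Slamf8* (0.64), *Gm4070* (0.79) and *Tnfsf10* (0.68), with adjusted p from 5.45e-38 to 4.26e-18 (edgeR). *Tnfsf10*, the death ligand TRAIL, was at 25.5 CPM (13.8 to 144) in interferon-high and 14.6 CPM (9.3 to 21.8) in interferon-low samples. On the negative side *Alb*, *Zmat3*, *Usp22*, *Sept10* and *Eogt* had slopes of -1.37, -0.09, -0.08, -0.11 and -0.09. The *Alb* slope was -0.29 and did not pass without the 28 set-aside libraries that held over 100 CPM of skin or striated muscle genes (adjusted p = 0.157, edgeR). It was -0.48 without the *Gpsm3* line (adjusted p = 0.0961, edgeR), and the *Eogt* slope was -0.02 without the neutrophil score in the model (adjusted p = 0.512). None of these 5 was apart by more than 0.23 between interferon-high and interferon-low samples.

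**Figure D4:**
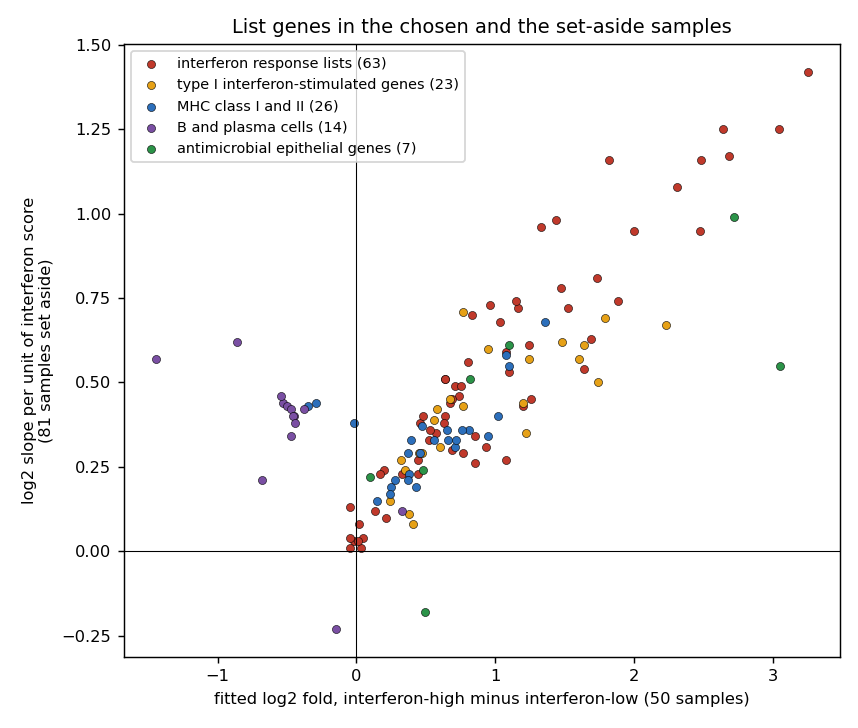
Fitted log2 fold in the 50 chosen samples (x axis) against the log2 slope per unit of interferon score in the 81 samples set aside (y axis), with 1 point per list gene, coloured by list and with the number of genes in brackets. Interferon response genes lie at upper right, and 13 of the 14 B and plasma cell genes lie left of 0.

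Markers of T cells and cytotoxic lymphocytes leaned higher in 3 lines and lower in the *Dock2* line. Of 10 T cell genes 9 lay above 0 with a median log2 fold of 0.41, none was 2-fold apart and 1 was higher in all 4 lines; their summed level was 22.2 CPM (8.23 to 53.6) against 19.3 CPM (6.05 to 30.8). *Cd3e*, a chain of the T cell receptor complex, was at 1.65 CPM (0.554 to 5.61) against 1.46 CPM (0.255 to 2.13), with a difference of 1.17 in the *Gpsm3* line and -0.45 in the *Dock2* line. *Cd8a* had medians of 1.85 and 0.57 CPM among *Nckap1l*, 2.96 and 0.555 CPM among *Gpsm3* and 1.48 and 0.932 CPM among *Dok3* samples, but 0.378 and 0.891 CPM in the *Dock2* line. All 8 cytotoxic genes fitted lay above 0 with a median log2 fold of 0.66, 4 were at least 2-fold higher and 1 was higher in all 4 lines. That median was 0.45 without the *Nckap1l*, 0.09 without the *Gpsm3* and 0.14 without the *Dok3* line, each with 1 of 7 genes at least 2-fold higher. Without the *Dock2* line it was 1.03, with 4 of 8. The cytotoxic protease *Gzmb* was at 0.725 CPM (0 to 4.11) against 0.251 CPM (0 to 1.55), a log2 fold of 1.73 ± 0.352. The part of these cells in the interferon genes was not tested; in the *Dock2* line all 7 GTPases were higher while the median T cell gene was at -0.28. In the set-aside samples 7 of 10 T cell and 7 of 10 cytotoxic genes had a positive slope.

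B cell and plasma cell genes were lower in interferon-high samples in some lines. All 8 B cell genes lay below 0 with a median log2 fold of -0.47, but the line medians were -2.44 for *Nckap1l*, -1.28 for *Dock2*, -0.13 for *Gpsm3* and 0.80 for *Dok3*. *Cd79a*, a chain of the B cell receptor, was at 0.128 to 0.403 CPM in the 5 interferon-high samples of the *Nckap1l* line, all labelled HO. In the interferon-low samples of that line it was at 0.122 to 6.61 CPM in 4 WT samples and at 4.67 CPM in the library labelled HO. In the *Dock2* line it was at 0.883 to 3.2 CPM in 4 interferon-high HO samples, 2.2 to 14 CPM in 3 interferon-high WT samples and 6.84 to 10.5 CPM in 6 interferon-low WT samples. Genotype and interferon group cannot be told apart for these or other genes in the *Nckap1l* line. The B cell median was -0.37 with genotype added to the fit. It was -0.04 without the *Nckap1l* line, -0.28 without the *Dock2* line, -0.61 without the *Gpsm3* line and -1.07 without the *Dok3* line, where 7 of the 8 genes were at least 2-fold lower.

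Of the 73 genes at least 2-fold lower, 63 were variable segments of immunoglobulins, out of 124 such segments fitted, whose median log2 fold was -1.01. Variable segments resemble each other, and the split of reads between them is uncertain. The 10 named by the same rule were 9 variable segments and *Igha*, the constant gene of IgA, which was at 154 CPM (0.255 to 1490) in interferon-high and 304 CPM (7.11 to 1740) in interferon-low samples. The *Igha* difference was -4.30 for *Nckap1l*, -2.47 for *Dock2*, -0.18 for *Gpsm3* and -0.08 for *Dok3*. *Jchain*, which links IgA dimers, was at 36.6 CPM (0.447 to 469) against 98.2 CPM (2.25 to 653). *Ighv1-54* (-3.04), *Igkv4-68* (-2.47) and *Igkv15-103* (-2.40) had the lowest log2 folds of the 10, and 12 of 25 interferon-high samples held no *Ighv1-54* read. In the set-aside samples no variable segment had a negative slope that passed and 16 of 148 had a positive one. None of the 8 B cell genes passed the test there, and their slopes were 0.34 to 0.46, opposite in sign to their folds in the 50 samples. The number of segments at least 2-fold lower was 34 of 124 with the neutrophil score in the fit of the 50 samples and 87 of 124 with DESeq2. It was 31 of 119 without the *Nckap1l* line, 48 of 122 without *Dock2*, 93 of 124 without *Gpsm3* and 77 of 91 without *Dok3*.

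**Figure D5:**
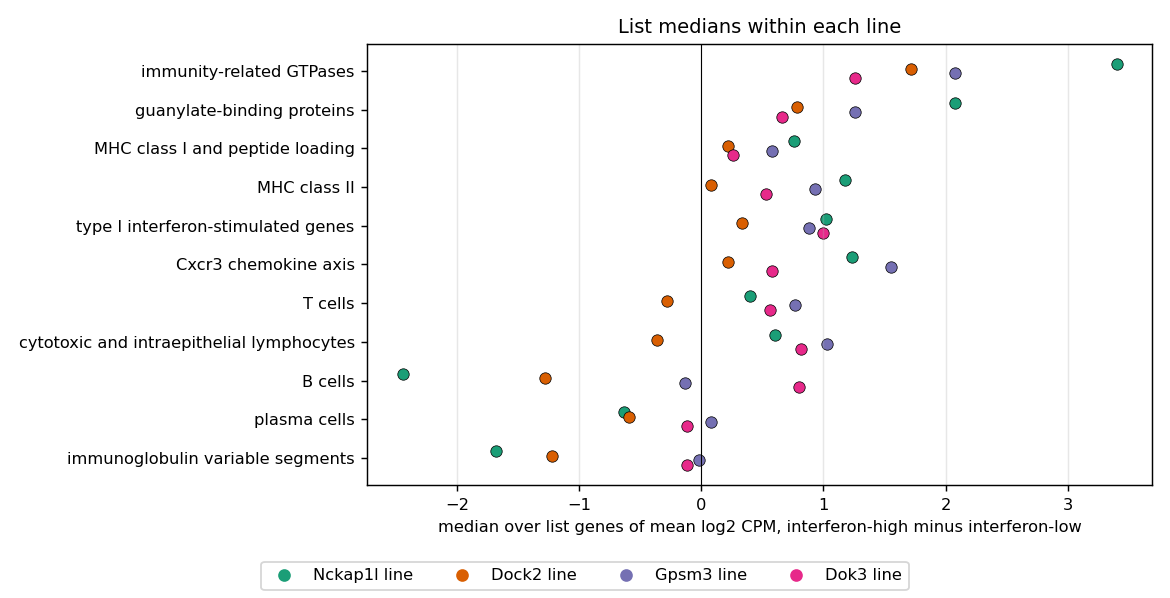
Median over the genes of each list of the difference in mean log2 CPM, interferon-high minus interferon-low (x axis), with 1 point per line. The GTPase and guanylate-binding lists are above 0 in all 4 lines; B cell genes run from -2.44 in the *Nckap1l* line to 0.80 in the *Dok3* line.

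Macrophage genes had a median log2 fold of 0.23 and a summed level of 407 CPM (295 to 561) against 370.0 CPM (210.0 to 567), with none 2-fold apart. Neutrophil and monocyte genes outside the score had a median of 0.25 and summed levels of 161 CPM (89.7 to 262) and 135 CPM (84.6 to 215); their part in the result was not tested. Dendritic cell genes had a median of 0.19, goblet cell genes of 0.16, smooth muscle genes of 0.11, fibroblast genes of 0.12, colonocyte genes of -0.07 and crypt stem cell genes of -0.09. Natural killer cell genes had a median of 0.28 over 3 fitted genes, regulatory T cell genes of 0.21 and mast cell genes of 0.14. Medians of the remaining lists were 0.17 for proliferation, 0.06 for enteroendocrine and tuft cells, 0.05 for endothelium and 0.09 for enteric neurons and glia. Erythrocyte genes had a median of 0.52. Skin keratinocyte and striated muscle genes, which mark tissue from beyond the colon, had medians of 0.24 and 0.94, with summed levels of 7.82 CPM (5.05 to 1600) and 18.2 CPM (6.19 to 6550) in interferon-high and 8.12 CPM (4.91 to 3720) and 15.9 CPM (4.72 to 5150) in interferon-low samples. Their direction turned with the setting: these medians were -1.56 and -1.03 with the neutrophil score in the fit, -2.10 and -1.75 without the *Dock2* line, -1.54 and -1.04 with the top and bottom 1 in 4 as groups, and 1.71 and 2.21 with run in place of line, so no direction is given for them. Cytokines that induce interferon-γ or mark type 1 lymphocytes had a median of 0.18; *Il12rb1*, a receptor chain for interleukin-12, was at 0.816 CPM (0.331 to 2.51) against 0.441 CPM (0.0637 to 0.813). Of the type 3 and type 2 cytokines 4 genes were fitted, with a median of -0.03, and *Il17a* and *Il22* had no read in most samples.

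Among antimicrobial epithelial genes 3 of 7 were at least 2-fold higher. *Duoxa2*, the maturation factor of the epithelial oxidase, was at 7.78 CPM (1.39 to 34.4) against 3.58 CPM (1.21 to 26.6), a log2 fold of 1.10 ± 0.235, and *Duox2* at 166 CPM (58.3 to 546) against 103 CPM (52.9 to 417); both had a positive slope in the set-aside samples (0.61 and 0.51). *Ang4* and *Retnlb*, secreted by Paneth and goblet cells, had log2 folds of 3.05 ± 1.33 and 2.72 ± 1.06, larger but with errors to match. *Ang4* was at 3.38 CPM (0 to 872) against 0.816 CPM (0.0714 to 285), so the groups overlapped almost wholly, and its slope in the set-aside samples did not pass (adjusted p = 0.167, edgeR). *Reg3b* and *Reg3g*, antimicrobial lectins, were too low to be fitted in the 50 samples and had slopes of 1.56 and 1.69 in the set-aside samples (adjusted p = 0.00023 and 1.57e-05, edgeR). *Lcn2*, a sign of epithelial inflammation, was at 1.87 CPM (0.659 to 7.97) against 1.36 CPM (0.357 to 12.7).

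Whether the slope on the score differed between lines was tested by an interaction in the set-aside samples, and 84 of 21199 genes (0.396%) passed (edgeR). Of the pathway lists only *Il18bp*, the decoy receptor of interleukin-18, was among them (adjusted p = 0.0303, edgeR).

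The groups were not even in genotype. In the *Nckap1l* line 5 HO and 0 WT samples were interferon-high and 1 HO and 4 WT interferon-low (Fisher's exact test, two-sided, p = 0.0476, adjusted over 4 lines 0.19). In the *Dock2* line the counts were 4 HO and 3 WT against 1 HO and 6 WT (p = 0.266, exact), among *Gpsm3* samples 3 and 3 against 4 and 2, and among *Dok3* samples 4 and 3 against 4 and 3. The 1 interferon-low HO library of the *Nckap1l* line had *Nckap1l* at 22.7 CPM, and that of the *Dock2* line had *Dock2* at 28.7 CPM. Both values lay within the WT range of the line. *Gpsm3* was at 0.784 to 2.74 CPM in the 4 interferon-low HO samples of its line and at 0.257 to 0.576 CPM in the 3 interferon-high ones. Relative to *Ptprc*, 3 of those 4 lay nearer the WT level. In the *Dok3* line 3 interferon-high libraries and 1 interferon-low library lay nearer the other genotype. The comparisons in these 2 lines therefore also rest on labels that the targeted gene did not bear out in every library. The tests by genotype were not rerun without these libraries. The 79 low-neutrophil samples were kept by the neutrophil score of the same libraries, a step that used neither the interferon score nor genotype. Whether that choice bears on the comparison by genotype was not tested. Over these 79 samples, the interferon score of the *Nckap1l* line was 5.21 ± 1.4 (SD, n = 7) in HO and 3.66 ± 0.564 (n = 8) in WT samples, a difference of 1.55 (exact permutation test, two-sided, p = 0.0106, adjusted over 5 comparisons 0.0528). In the *Dock2* line it was 3.87 ± 0.841 (n = 9) and 3.45 ± 0.453 (n = 12), a difference of 0.42 (p = 0.167, exact), and in the *Gpsm3* and *Dok3* lines the difference was 0.03 and -0.03. With all lines together, 40 HO and 39 WT samples differed by 0.41 (permutation test within lines, p = 0.0346, adjusted 0.0864). None of these passed after adjustment. Sample numbers of the labels fall into runs, whose meaning is not given in the sources used here. With labels permuted only within runs the difference was 0.26 over all lines (permutation test, p = 0.189) and 1.55 in the *Nckap1l* line (exact, p = 0.0952), where 4 of the 5 interferon-high samples came from the run that gave 1 of the 5 interferon-low samples. In that run alone, 5 HO and 2 WT samples differed by 2.0 (exact, p = 0.0952). With 21 relabellings this is the lowest p the test can give, so it could not pass and decides nothing. The spread of groups over runs did not pass the test in any of 3 lines (Fisher's exact test, lowest p = 0.286). Sex was compared in the *Nckap1l* and *Dock2* lines, where females differed from males by -0.50 (exact permutation test, p = 0.507) and -0.31 (p = 0.328). With the set-aside samples included, HO minus WT was 0.78 in the *Nckap1l*, 0.39 in the *Dock2*, 0.56 in the *Gpsm3* and -0.09 in the *Dok3* line. Over all lines it was 0.37. None of these 5 differences passed (permutation test within lines, lowest adjusted p = 0.118).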

How the data were processed

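Ribosomal RNA-depleted, stranded RNA-seq libraries (KAPA Stranded RiboErase, single reads of 100 bases) were made from the distal colon of 160 mice. The authors aligned to mm10 with STAR, and featureCounts (Subread) gave counts per gene (versions not given in the sources used here), and the deposited values are raw counts of 39179 Ensembl genes per sample, with no normalization. Symbols from GENCODE for GRCm38 covered 96.2% of genes and 99.67% of counts. Depth ran from 4344988 to 19993833 counts per sample.

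Groups were formed from log2(CPM + 1) of the raw counts; group sizes were rounded down. Genes were filtered with filterByExpr, normalized by TMM and fitted with edgeR 4.0.16 (R 4.3.3), with line as covariate for the 50 samples and with line and neutrophil score for the slope in the 81 set aside. P-values were adjusted by Benjamini-Hochberg (threshold 0.05). Folds of at least 2 were counted without a test. Labels were compared with exact and permutation tests (scipy 1.17.1; 100000 permutations where not exact) and Fisher's exact test. DESeq2 1.42.0, limma-voom (limma 3.58.1), other cuts, filters and covariates, and each line left out, were alternatives. Leaving out libraries with mismatched sex markers, skin or striated muscle genes, outlying scores, or a targeted gene nearer the other genotype (ratio to *Ptprc*), and permuting within runs, were chosen after seeing the data. Both fits were also run on simulated counts of independent genes with a common dispersion and no line effect. That setting is simpler than these data and does not cover samples chosen by the response, so no support is drawn from it. The samples, 37 gene lists and rules were chosen with earlier results of these data known. Genes were named if in a list, or, in no list, as the 10 largest folds in each direction with the same sign in 4 lines and the 5 smallest p of the slope in each direction. The other immunoglobulin segments were grouped by annotation after their values were seen. Each sample is labelled as its own mouse. No pair of samples of a group agreed within sampling noise (smallest mean chi-square per gene 3.74). Mitochondrially encoded genes held no counts in the 50 samples, so their share was not used as a sign of RNA quality. The *Aif1* line is not analysed here, and some genes of the lists are counted in their list but not reported here by name.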

Additional observations from a re-analysis of the deposited data

Results flagged for a closer look

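Samples far from the rest of their line and group were sought in 128 sets of 5 to 7 samples. The measure was the gap of the highest or lowest sample relative to the range, and 13 were found. A chance rate of about 1 set in 20 applies to independent sets not picked by rank. These groups were ranked on the interferon score and the sets share libraries, so no comparison with that rate is drawn. The sample *Nckap1l* HO 14 had an interferon score of 7.59, with the next at 5.57, and a *Cxcl10* level of 4.89 on the log2 CPM scale. The sample *Dock2* HO 2 had a score of 5.67, with the next at 4.38, and log2 CPM of 7.24 for *Irgm1*, 4.84 for *Ifi47* and 5.62 for *Nlrc5*. At the low end *Dok3* HO 11 had a score of 2.45, with the next at 2.75, and log2 CPM of 0.83 for *Ifi47*, 1.77 for *Nlrc5* and -0.37 for *Cd3e*. *Ido1* was at 5.90 in *Gpsm3* WT 7, with the next at 2.66. *Ifng* was at -1.63 in *Nckap1l* WT 12 and at -2.42 in *Gpsm3* HO 5, where the other interferon-low samples of the line had no reads. Without *Nckap1l* HO 14, *Dock2* HO 2 and *Dok3* HO 11, 82 genes were at least 2-fold higher and 68 lower.

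The slope on the interferon score in the set-aside samples differed between lines for *Il18bp* (adjusted p = 0.0303, edgeR interaction test) and *Alb* (adjusted p = 0.00852).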

How the results depend on the processing

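For the genes at least 2-fold apart, the 89 higher became 445 and the 73 lower 471 with no filter beyond 1 count, and 532 and 136 with run of sample numbers in place of line. The lower genes alone moved to 113 with the neutrophil score added, and to 37, 141 and 110 without the *Nckap1l*, *Dock2* and *Dok3* lines. Without the *Nckap1l* line 7 of 7 immunity-related GTPases, 2 of 5 guanylate-binding proteins and 9 of 23 type I genes were at least 2-fold higher. For the slope in the set-aside samples, 1037 positive and 356 negative genes became 578 and 83 at an adjusted p under 0.01, 2195 and 1394 without the neutrophil score, and 559 and 87 without the *Gpsm3* line; the negative genes alone moved to 223 with run in place of line, 568 with DESeq2, 122 without the *Nckap1l* line and 645 without libraries whose targeted gene lay nearer the other genotype. Leaving out a line or libraries leaves fewer samples; the cause of the other changes was not tested. The counts under the remaining alternatives were within 1.5 times. The comparisons by genotype, sex and run kept their side of the threshold under each alternative tried for them. None of those alternatives left out the libraries whose targeted gene lay nearer the other genotype. Of 645 slopes of named genes under alternatives, 638 kept direction and call, 5 lost the call and 2 gained it; all 714 folds moved by less than the spread within groups. *Cd3e* lost its slope call without the *Dock2* or the *Dok3* line (adjusted p = 0.0675 and 0.0984, edgeR). Reads near 0, as for *Ifng*, limit what depth can show. No paired analysis was possible because the numbers in the labels do not pair samples across groups.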
